A study of Mus musculus with 6 samples.

Results

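Chromosome 5 of the mouse was examined between 5 and 35 Mb (mm10, which is the GRCm38 assembly) by cap analysis of gene expression (CAGE) in 2 cell types. The 30 Mb were divided into 300 bins of 100 kb, out of 26624 bins on chromosomes 1 to 19, X and Y. This stretch and its boundaries were chosen by an earlier look at the same tags, so the difference between the cell types within it is described here and not tested. The mESC group consists of 3 libraries of R08, a mouse embryonic stem cell line grown without feeder cells and with LIF. The mOPC group consists of 3 libraries of oli-neu, an established line derived from mouse oligodendrocyte precursor cells. All 6 libraries were made from nuclear RNA of untreated cells, each group being a single line, and the labels do not say whether the libraries of a group come from separate cultures. The mESC libraries share 1 library label and the mOPC libraries another, so that cell type and library label cannot be told apart.

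CAGE reads a short tag from the capped 5′ end of an RNA, and the number of tags at a base shows how often RNAs begin there. Most tags start at promoters inside or just before annotated genes, while others start on the strand opposite to a gene or between genes. Genes that lie next to each other can share a chromatin domain, an enhancer or a promoter that fires in both directions. Starts opposite to and between genes are therefore read beside those of the genes themselves.

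The libraries held 16657021 to 40928704 tags, of which 1.04 to 1.05% lay between 5 and 35 Mb in mESCs and 4.23 to 4.34% in mOPCs. Tags of each library were put in 3 classes, those inside a gene on its strand, those opposite to a gene and those outside genes, and each class was scaled to 1000000 of its tags genome-wide. Inside genes, the 30 Mb held 11204, 11132 and 11230 tags per 1000000 tags of the class in mESCs and 47465, 46034 and 45904 in mOPCs. Opposite to genes, the values were 12211, 13219 and 12627 in mESCs and 41025, 41949 and 40882 in mOPCs, and outside genes 6681, 6953 and 7145 in mESCs and 25790, 26295 and 26538 in mOPCs. In each class all mOPC libraries lay above all mESC libraries, by 4.15, 3.25 and 3.78 times. A fold of this kind comes from bulk RNA, in which fewer cells with a start and less RNA per cell cannot be told apart. The folds over the 30 Mb also rest in part on short stretches. Inside genes, Slc35f6 to Gpn1 alone had means of 1385 in mESCs and 19789 in mOPCs, out of 11189 and 46467 over the 30 Mb. Opposite to genes, the means from 22.7 to 24.5 Mb were 1139 in mESCs and 21443 in mOPCs, out of 12686 and 41285. Of the defining mESC genes, Pou5f1, Zfp42 and Dppa5a had no tag in mOPCs. The summed level of 6 mOPC markers was 7.45 to 8.26 tags per 1000000 in mESCs and 1392 to 1498 in mOPCs, although Nkx2-2, one of these markers, reached only 0.637 in mOPCs. Markers of mature oligodendrocytes summed to 45.6 to 48.6 in mOPCs and 12.4 to 13.9 in mESCs. Those of neurons summed to 123 to 152 in mOPCs (mostly Syt1) and 10.6 to 11.1 in mESCs. Microglia markers summed to 39.1 to 43.7 in mOPCs (mostly Cx3cr1, with like values in mESCs). Fibroblast markers summed to 9.69 to 12.3 in mOPCs and 6.87 to 7.27 in mESCs. Astrocyte markers summed to at most 0.873 in mOPCs and 11.3 in mESCs. Some members of these lists were lower in mOPCs. Mobp, Rbfox3, Snap25 and Pdgfrb had means of 12.1, 4.64, 1.95 and 5.31 in mESCs. In mOPCs their means were 0.158, 0.459, 0.0561 and 0.0431. Each group is a single line, and what these markers mean for the values along chromosome 5 was not tested.

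A bin was given the median over its measured classes of the log2 ratio of mean mOPC to mean mESC scaled tags, with 1 added to both. A raised segment was a run of at least 5 bins whose running median over 5 bins was at least 1, a 2-fold difference. Between 5 and 35 Mb, 175 bins had a value and 125 had too few tags. The median of the bin values was 1.71, against 0.44 over the genome. Raised segments covered 108 of the 300 bins (36.0%), and the same rule raised 9.67% of bins genome-wide and 6.82% on the rest of chromosome 5. Among 72 windows of 30 Mb placed the same way along the chromosomes, this one held the most raised bins, followed by one with 31.0%, and the median window had 9.33%. This window was chosen by an earlier look at the same tags, so nothing is read from its rank. No segment lowered by the same rule was found between 5 and 35 Mb. Over all 26624 bins of the genome only 71 were found, so none in 300 bins is not read as particular to this stretch. The genome median of 0.44 also lies nearer to the threshold for raised bins than to that for lowered bins.

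Of the bins tested by edgeR's quasi-likelihood test, 118 of 176 were called at least 2-fold higher in mOPCs by tags inside genes, where the same rule called 43.0% of bins genome-wide. By tags opposite to genes 90 of 137 bins were called, against 42.9% genome-wide, and by tags outside genes 76 of 125, against 37.1%. The 30 Mb were chosen on this contrast and nothing is read from these counts.

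**Figure D1:**
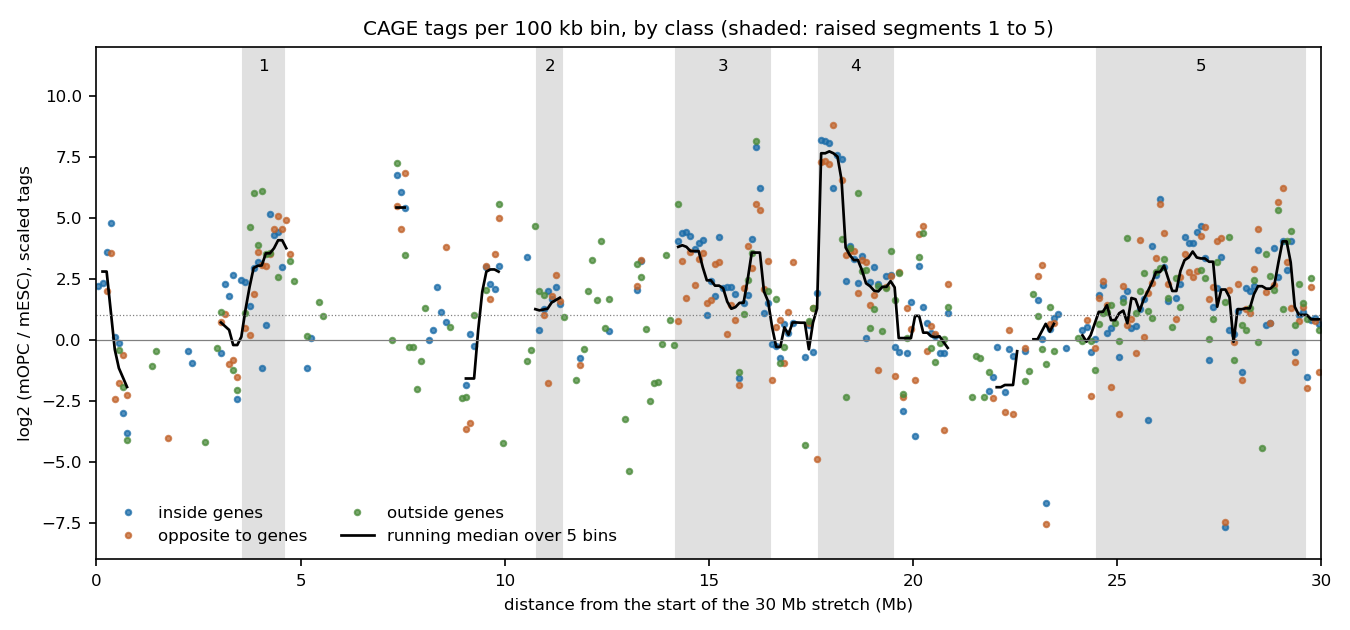
Log2 ratio of mean scaled tags in mOPCs to mESCs for each 100 kb bin and class (points), plotted by distance from the start of the 30 Mb, with the running median over 5 bins (line) and the raised segments shaded and numbered 1 to 5. Most points of the 3 classes lie above 0 in the shaded segments, and long stretches without a line hold too few tags.

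Raised segments numbered 5. They spanned 8.6 to 9.6 Mb, 15.8 to 16.4 Mb, 19.2 to 21.5 Mb, 22.7 to 24.5 Mb and 29.5 to 34.6 Mb, and are called segments 1 to 5 in this order. Segment 5, with 5.1 Mb, was the longest of 286 raised segments in the genome by these settings, segment 3 was the fourth and segment 4 ranked 11. Segments 1 and 2 ranked 76 and 186. In 9 of 20 alternative settings segment 5 was split into 2 or 3 pieces, of which the longest had 1.3 to 3.3 Mb. By the median of their bins, 3.29, 1.40, 2.71, 3.26 and 1.96 on the log2 scale, the 5 segments ranked 60, 259, 111, 65 and 186 of the same 286.

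At the ends of the segments, the outermost bins inside had values of 1.07 (start of segment 1), 1.2 and 1.52 (segment 2), 1.35 (end of segment 5), 1.69 (its start), 1.97 (end of segment 3), 2.66 (end of segment 4), 3.75 (end of segment 1), 4.06 (start of segment 3) and 7.72 (start of segment 4). The neighbouring bins outside were at −0.91 after segment 3, −1.48 before segment 4, −0.29 after it, −0.34 before segment 5 and −1.51 after it, and the other 5 had too few tags for a value.

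Sequences at RefSeq promoters of the genes with the largest changes show the bases at which tags start. The 13 genes with the largest changes in the segments, chosen as described below, were matched to the promoters of RefSeq (GRCm38.p6), and 7 of them had at least 100 mOPC tags there and enough bases on either side. Each sequence runs 5′ to 3′ from 40 bases before to 20 bases after the position with most mOPC tags, and the capitals mark that position and the base after it.

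Crot, a carnitine acyltransferase of peroxisomes, minus strand, chr5:8997127-8997187: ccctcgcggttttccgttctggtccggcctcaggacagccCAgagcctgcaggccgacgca
Magi2, a synaptic scaffold protein, plus strand, chr5:19226885-19226945: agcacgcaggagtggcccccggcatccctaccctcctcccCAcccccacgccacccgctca
Gsap, gamma-secretase activating protein, plus strand, chr5:21176054-21176114: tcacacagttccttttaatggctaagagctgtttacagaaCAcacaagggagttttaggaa
Lhfpl3, a membrane protein of the LHFPL family, plus strand, chr5:22746001-22746061: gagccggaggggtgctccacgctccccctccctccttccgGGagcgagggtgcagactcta
Rint1, a factor of vesicle transport and checkpoint control, plus strand, chr5:23787681-23787741: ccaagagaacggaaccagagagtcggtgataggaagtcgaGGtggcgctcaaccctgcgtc
Mrpl33, a protein of the mitochondrial ribosome, plus strand, chr5:31613931-31613991: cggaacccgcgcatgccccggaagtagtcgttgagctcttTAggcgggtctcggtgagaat
Mxd4, a partner of MAX that counters MYC, minus strand, chr5:34187713-34187773: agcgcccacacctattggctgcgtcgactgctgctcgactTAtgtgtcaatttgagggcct

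In 5 of these promoters the capitals are a pyrimidine followed by a purine (C or T, then A or G), the pair at which mammalian transcripts usually begin, and Lhfpl3 and Rint1 have GG. Over the promoters of the raised segments with at least 100 tags, 92.6% had such a pair at the position with most mOPC tags, compared with 88.6% over all promoters of protein-coding genes. The pair that ends at the deposited position was of this kind in only 1.24% of raised promoters and 1.14% of all promoters. The deposited positions thus mostly lie on the pyrimidine, 1 base before the purine, and the cause was not tested. Tags exactly 1 base before an annotated start made up 11.5 to 11.7% of the tags outside genes in mESCs and 24.5 to 25.6% in mOPCs, so that this offset moves more mOPC than mESC tags across the start of a gene. With every position moved 1 base downstream, an alternative chosen after the data were seen, 5 raised segments with 10.3 Mb were found.

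The same base held most tags in both cell types for Crot (59.7% of the promoter's tags in mOPCs and 43.8% in mESCs) and for Mxd4 (12.9% in mOPCs). For Rint1 the positions were 3 bases apart and for Mrpl33 16 bases. The promoters of Gsap and Lhfpl3 had 4714 and 26002 tags in the mOPC libraries together and 0 in the mESC libraries. The RefSeq start of Gsap lies before the start of the gene in GENCODE, at 21186255. The 4714 tags at the printed promoter are therefore not in the count of Gsap and did not make its fold change. Among 72 promoters of raised segments with enough tags in both cell types, the position with most tags was the same in 43 (59.7%), compared with 65.9% of 7240 promoters genome-wide. The median GC content was 63.7% over all 104 matched promoters of raised segments, 63.7% over the 56 between the segments and 61.0% over 12419 promoters of the genome.

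Segment 1, from 8600001 to 9600000, covers the genes from Abcb1a to 9330182L06Rik. Inside genes it held 632, 619 and 624 tags per 1000000 of the class in mESCs and 1870, 2030 and 2083 in mOPCs. Outside genes it held 122, 140 and 133 in mESCs and 1639, 1696 and 1605 in mOPCs, a 12.5-fold difference. Opposite to genes, the libraries held 1945, 1696 and 1968 in mESCs and 2501, 2647 and 2640 in mOPCs. The mOPC libraries lay above the mESC libraries in each class. Opposite to genes, the bin from 8.7 Mb held most of the tags. It contains 8798146, the base with most tags of the Abcb1b promoter (58.1% of 7199 mESC and 47.9% of 12016 mOPC tags). This base lies just before the annotated start of Abcb1b and within Gm5106 on the other strand. Its tags thus count as opposite to a gene although they lie in the promoter of Abcb1b. Without this bin, a choice made after the data were seen, the values were 56.7, 56 and 59.5 in mESCs and 504, 506 and 534 in mOPCs. The difference was then 8.96-fold in place of 1.39-fold. Of tags outside genes and over 10 kb from any annotated 5′ end, 20 were counted in the mESC libraries together and 2653 in the mOPC libraries.

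All 7 protein-coding genes of segment 1 were called higher in mOPCs. Over the genome the test called 41.9% of protein-coding genes higher in mOPCs and 49.1% lower. Levels of genes are given as tags per 1000000 tags of the library (CPM). Abcb1a and Abcb1b encode the P-glycoprotein efflux pumps, and Abcb4 a phospholipid transporter known from bile. Abcb1a had 2.81, 2.77 and 3.71 CPM in mESCs and 26.8, 28.7 and 30.9 in mOPCs, a log2 fold change of 3.11. Abcb4 had 7.29, 7.66 and 5.83 CPM in mESCs and 40.9, 49.4 and 49.8 in mOPCs. Abcb1b, between them, had 34.0, 32.5 and 35.5 CPM in mESCs and 67.4, 75.2 and 69.9 in mOPCs. This count leaves out the base with most tags of its promoter, just before the annotated start. Its RefSeq promoter had 7199 tags in the mESC libraries together and 12016 in the mOPC libraries. By the gene counts the groups did not overlap for these transporters. The log2 fold change of Abcb1b, 0.93, came to 0.43 with positions moved 1 base.

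The changes of segment 1 were uneven. Crot had 50.3, 39.4 and 48.9 CPM in mESCs and 454, 437 and 451 in mOPCs. 9330182L06Rik, at 9266118 to 9481825, had 6.10, 7.96 and 7.80 CPM in mESCs and 267, 323 and 352 in mOPCs, with a log2 fold change of 5.33. Dmtf1, a transcription factor that restrains the cell cycle, had 347, 352 and 344 CPM in mESCs and 419, 471 and 484 in mOPCs, and its log2 fold change was 0.27. Neighbours in one segment thus differed by 0.27 to 5.33 on the log2 scale.

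Segment 2, from 15800001 to 16400000, holds a single protein-coding gene, Cacna2d1, a subunit of voltage-gated calcium channels. Cacna2d1 had 33.2, 38.5 and 48.1 CPM in mESCs and 85.7, 118 and 136 in mOPCs, with a log2 fold change of 1.39. The groups did not overlap. Opposite to genes, segment 2 held 44.1, 47.3 and 39.3 tags per 1000000 in mESCs and 46.1, 58.3 and 66.1 in mOPCs, and these ranges overlapped. Segment 2 was lost in 10 of 20 alternative settings, among them the one without mOPC library 3, while the other 4 segments kept at least 0.7 Mb in each setting.

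Segment 3, from 19200001 to 21500000, begins with Magi2 and ends with Fam185a. Inside genes it held 506, 497 and 507 tags per 1000000 in mESCs and 2951, 2973 and 2961 in mOPCs. Opposite to genes the values were 177, 174 and 191 in mESCs and 1329, 1403 and 1463 in mOPCs, and outside genes 220, 207 and 230 in mESCs and 2834, 2765 and 2795 in mOPCs. These are 5.89-, 7.75- and 12.8-fold differences. On the plus strand outside genes the difference was 36.6-fold, and on the minus strand 6.46-fold.

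Of the 9 protein-coding genes of segment 3, all tested, 7 were called higher and 1 lower. Gsap had 2.6, 2.35 and 3.11 CPM in mESCs and 851, 840 and 820 in mOPCs, a log2 fold change of 8.15. Ptpn12, a phosphatase that acts on proteins of cell adhesion, had 10.3, 8.63 and 9.87 CPM in mESCs and 153, 139 and 143 in mOPCs. Magi2 had 13.3, 12.6 and 15.4 CPM in mESCs and 173, 173 and 170 in mOPCs. Fam185a, the last gene with at least 2 CPM, had a log2 fold change of 1.47. Fgl2, a fibrinogen-like protein, lies just past Gsap and went the other way, with 3.00, 3.56 and 3.43 CPM in mESCs and no tag in mOPCs. Against a floor of 3 tags over the pooled mOPC libraries, Fgl2 was at least 98.2-fold lower in mOPCs.

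Segment 4, from 22700001 to 24500000, reaches from Lhfpl3 to Agap3. Opposite to genes it held 1097, 1241 and 1078 tags per 1000000 in mESCs and 21258, 21967 and 21105 in mOPCs, an 18.8-fold difference. Inside genes the values were 997, 1075 and 1030 in mESCs and 8173, 8517 and 8094 in mOPCs, and outside genes 1114, 1246 and 1296 in mESCs and 6768, 7153 and 7221 in mOPCs. The mOPC libraries were above the mESC libraries in each class. A single bin from 23.1 Mb, within Lhfpl3, held 40264 tags opposite to genes over the 6 libraries. Without it the values opposite to genes were 1096, 1241 and 1078 in mESCs and 12580, 12173 and 11312 in mOPCs, a 10.6-fold difference. Over 10 kb from any 5′ end, the tags opposite to genes numbered 160 in mESC and 43591 in mOPC libraries, and that bin dominates this count. Tags outside genes at this distance went the other way, with 999, 1157 and 1136 tags per 1000000 of such tags in mESCs and 536, 606 and 508 in mOPCs.

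Of the 18 protein-coding genes tested in segment 4, 16 were called higher and 2 lower, and each of the 16 differed by more than 2-fold. Lhfpl3, at 22746059 to 23275597, had 0.265, 0.422 and 0.327 CPM in mESCs and 1197, 1193 and 1118 in mOPCs, with a log2 fold change of 11.69. Of its tags 38.7% also lie in another gene on the same strand, mostly the long non-coding RNA gene 6030443J06Rik, and cannot be assigned to 1 of them. Kmt2e, a chromatin regulator of the KMT2 family, had 86.5, 105 and 93.0 CPM in mESCs and 991, 1133 and 1090 in mOPCs. Rint1 had 32.3, 30.5 and 30.7 CPM in mESCs and 411, 425 and 424 in mOPCs. Fam126a, or hyccin, a gene mutated in a human disease of missing myelin, had 26.8, 29.2 and 27.7 CPM in mESCs and 211, 223 and 233 in mOPCs.

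A cluster of genes near the end of segment 4 was higher as well. Nos3, endothelial nitric oxide synthase, had 7.82, 7.42 and 8.67 CPM in mESCs and 100, 111 and 129 in mOPCs. Cdk5, a kinase active in neurons, had 7.27, 7.24 and 6.54 CPM in mESCs and 94.3, 77.7 and 83.1 in mOPCs. Abcb8, a mitochondrial ABC transporter, had 11.2, 10.1 and 10.6 CPM in mESCs and 73.6, 66.3 and 71.3 in mOPCs. The mOPC levels of these genes were all above the mESC levels. The exceptions were Tomm7, part of the import pore of mitochondria, and Atg9b, a lipid scramblase of autophagy. Tomm7 had 224, 239 and 213 CPM in mESCs and 216, 219 and 164 in mOPCs, and the ranges overlapped. Atg9b, which lies between Nos3 and Abcb8 on the other strand, had 7.66, 8.63 and 6.71 CPM in mESCs and 4.22, 3.77 and 3.93 in mOPCs. Its RefSeq promoter went the other way, with 17 tags in the mESC libraries together and 169 in the mOPC libraries, so that the lower level of Atg9b does not describe its promoter.

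**Figure D2:**
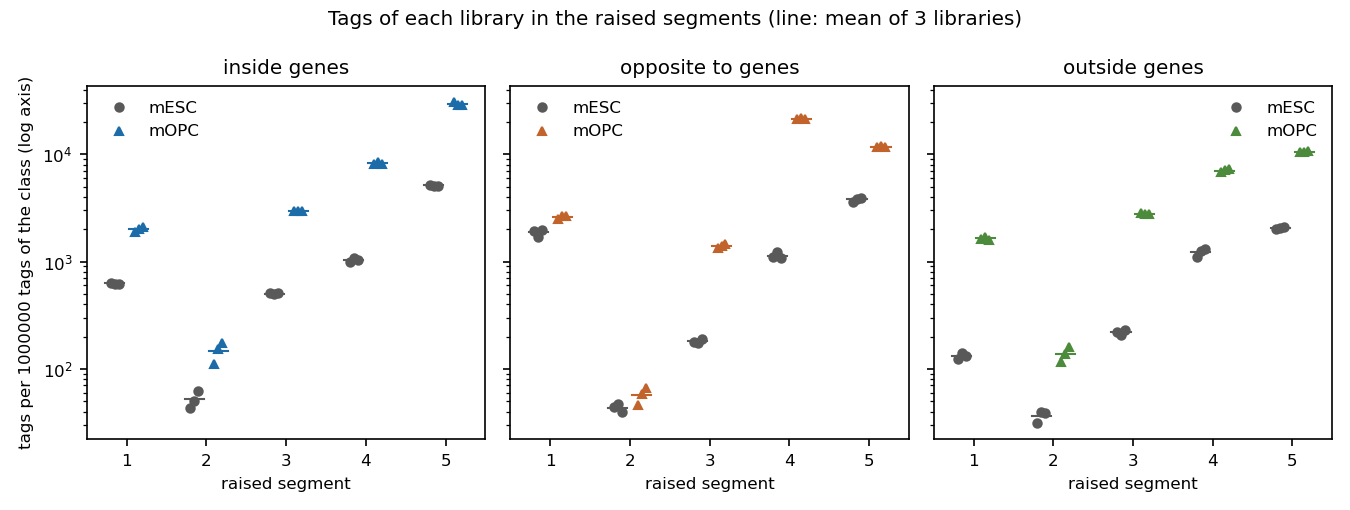
Tags of each library in raised segments 1 to 5, as tags per 1000000 tags of the class on a log axis, for tags inside genes, opposite to genes and outside genes, with the mean of the 3 libraries as a line. The mOPC points lie above the mESC points in each panel except opposite to genes in segment 2, where they overlap.

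Segment 5, from 29500001 to 34600000, holds 91 protein-coding genes and includes the genes from Slc35f6 to Gpn1 (30647933 to 31512904). Before Slc35f6, from 29.5 Mb on, the libraries held 869, 819 and 829 tags per 1000000 inside genes in mESCs and 1691, 1738 and 1718 in mOPCs. After Gpn1, to 34.6 Mb, they held 2885, 2899 and 2933 in mESCs and 7882, 8016 and 7743 in mOPCs. The difference was 2.04-fold before, 14.3-fold from Slc35f6 to Gpn1 and 2.71-fold after. By the median of the bins, which weights each 100 kb alike, the 3 parts were closer, at 1.41, 2.03 and 2.26 on the log2 scale. Outside genes the differences were 4.75-, 6.23- and 4.86-fold in the same order. Outside genes and over 10 kb from any 5′ end, the part after Gpn1 had 3331, 3341 and 3238 tags per 1000000 of such tags in mESCs and 1449, 1494 and 1613 in mOPCs, and was thus lower in mOPCs.

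Without the genes from Slc35f6 to Gpn1, 37 of 52 tested protein-coding genes of segment 5 were called higher and 9 lower, with a median log2 fold change of 1.87. Before Slc35f6 the counts were 8 of 13 higher and 3 lower, and after Gpn1 29 of 39 higher and 6 lower. Of 14833 protein-coding genes tested over the genome, the median log2 fold change was −0.18.

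Among genes of segment 5 outside the Slc35f6 to Gpn1 stretch, Mxd4 had the largest change of those with at least 10 CPM. It had 5.17, 4.46 and 4.09 CPM in mESCs and 311, 304 and 288 in mOPCs, a log2 fold change of 5.88. Gm1673 had 2.36, 3.38 and 2.34 CPM in mESCs and 106, 122 and 96.4 in mOPCs. Mrpl33 had 16.3, 15.4 and 16.0 CPM in mESCs and 667, 661 and 649 in mOPCs, but nearly all of its tags also lie in the overlapping gene Gm43809 on the same strand. Nsd2, a histone H3 lysine methyltransferase, had 7.74, 8.50 and 8.78 CPM in mESCs and 128, 135 and 129 in mOPCs. Fosl2, an AP-1 transcription factor, had 1.33, 1.45 and 1.53 CPM in mESCs and 25, 24.7 and 17.9 in mOPCs. Fgfr3, a receptor for fibroblast growth factors, had 1.54, 1.27 and 0.818 CPM in mESCs and 12.8, 13.0 and 13.1 in mOPCs. For each of these genes the groups were far apart.

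Segment 5 also holds genes that were much lower in mOPCs. Yes1, a kinase of the SRC family that acts in stem cell self-renewal, lies at 32611171 to 32687057 and had 516, 594 and 588 CPM in mESCs and 1.97, 1.61 and 1.87 in mOPCs, a log2 fold change of −8.41. The bin from 32.6 Mb, with the start of Yes1, had the lowest value of the stretch, −7.48, while bins on both sides were raised. Ywhah, a 14-3-3 protein, had 110, 96.0 and 96.9 CPM in mESCs and 35, 41.9 and 42.9 in mOPCs. Rnf4, a ubiquitin ligase that recognizes SUMO, had 196, 179 and 187 CPM in mESCs and 108, 99.2 and 92.7 in mOPCs. Tyms, thymidylate synthase, had 67.0, 63.8 and 68.7 CPM in mESCs and 41.3, 41.3 and 42.3 in mOPCs. Slbp, which binds the stem-loop of histone mRNAs, fell by 0.49 on the log2 scale and Sh3bp2 by 2.27. The RefSeq promoter of Slbp had 181 tags in the mESC libraries together and 265 in the mOPC libraries, so its lower level was not seen there. Adgrf3, Drc1 and Spon2, all under 3 CPM, were lower too, with log2 fold changes of −3.87, −1.21 and −2.03.

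Within the Slc35f6 to Gpn1 stretch, 7 of the protein-coding genes tested were called lower in mOPCs. Dpysl5, a protein of growing axons, had 13.9, 13.8 and 13.8 CPM in mESCs and 0.872, 0.733 and 0.516 in mOPCs. Krtcap3 had 11.9, 11 and 10.1 CPM in mESCs and 0.230, 0.209 and 0.172 in mOPCs. Ift172, part of the transport of cilia, had 40.4, 36.6 and 42.2 CPM in mESCs and 18.5, 18.9 and 19.3 in mOPCs. The other 4, Cgref1, Slc30a3, Dnajc5g and Trim54, had at most 3.29 CPM in any library and log2 fold changes of −3.85, −3.41, −5.11 and −2.28. Log2 fold changes of tested genes in segment 5 thus ran from −8.41 to 9.56.

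**Figure D3:**
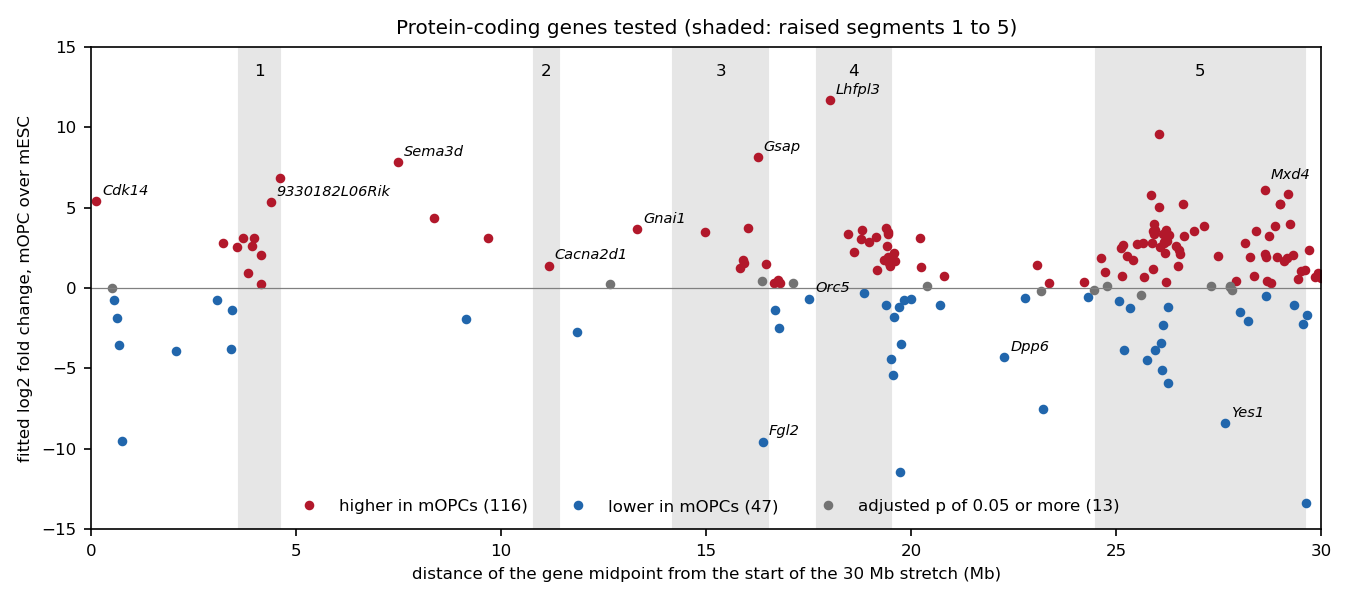
Fitted log2 fold change of each tested protein-coding gene (mOPCs over mESCs) by the distance of its midpoint from the start of the 30 Mb, coloured by the call, with the raised segments shaded. Genes called higher are dense in segments 4 and 5, and genes called lower, such as Yes1 and Fgl2, lie among them.

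Over all 5 segments, 92 of 118 tested protein-coding genes (78.0%) were called higher and 19 lower. Between the segments, 24 of 58 (41.4%) were called higher and 28 lower. Of 42 tested long non-coding RNA genes in the segments 33 were called higher, where 56.1% of tested long non-coding RNA genes were called higher genome-wide. These counts repeat what chose the segments. The 9 genes of the segments with too few tags for the test are not in these shares.

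The ends of the segments were located more finely by the share of mOPC tags among tags opposite to and outside genes, counting each position at most 3 times a library. Over the genome 59.0% of these tags came from mOPC libraries. The start of segment 4 was placed at 22730000, where the share changed from 52.7% before to 99.9% after it, among tags up to 500 kb from the end by bins. It lies between Orc5 and Lhfpl3 and was found at the same place when any library was left out. Orc5, a subunit of the complex that licenses replication origins, had 101, 103 and 115 CPM in mESCs and 72.0, 81.7 and 68.3 in mOPCs. The 2 genes on either side of this edge therefore changed in opposite directions, with log2 fold changes of −0.66 and 11.69.

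Segment 3 began by this measure at 18860000 (34.0 to 90.9%), between Gnai1 and Magi2, and ended at 21660000 (89.9 to 50.1%), within Armc10. Both edges stayed when any library was left out, and the end came to 21.54 Mb when tags were not capped. Armc10, which lies on the edge, had 36.1, 35.3 and 37.5 CPM in mESCs and 47.0, 55.1 and 48.2 in mOPCs. Gnai1, a G protein subunit and the nearest gene before segment 3, was higher in mOPCs although it lies outside, with 1.67, 1.39 and 1.2 CPM in mESCs and 17.8, 21.9 and 20.6 in mOPCs.

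Segment 1 began at 8800000 (52.5 to 96.1%), within Abcb1b, or at 8860000 without mOPC library 1. Its end was not sharp, since the share after 9150000 was still 87.2% and the position moved to 9940000 when mESC library 2 or 3 was left out. Grm3, a glutamate receptor gene whose midpoint lies just past this end, had 0.0530, 0.121 and 0 CPM in mESCs and 6.52, 8.59 and 7.40 in mOPCs. Rundc3b, which reaches across the start with its midpoint before it, was also higher in mOPCs, by 2.57 on the log2 scale. Genes on both sides of both ends of segment 1 were thus called higher.

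Segment 4 ended at 24470000 (74.6 to 56.5%), within Agap3, or at 24700000 without mESC library 1. Agap3 inside the end had 4.30, 3.62 and 4.36 CPM in mESCs and 12.5, 12 and 10.9 in mOPCs. Gbx1, a homeobox gene that begins just after it, had 3.74, 3.50 and 3.05 CPM in mESCs and 0.184, 0.174 and 0.172 in mOPCs.

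Segment 5 began at 29490000 (48.4 to 70.1%), between Mnx1 and Ube3c, with a range of 29480000 to 29490000 over the libraries left out. Nom1, before it, had 69.0, 66.7 and 74.9 CPM in mESCs and 73.3, 72.2 and 70.8 in mOPCs, and these ranges overlapped. Ube3c, a ubiquitin ligase and the first gene inside, had 27.7, 25.9 and 29.3 CPM in mESCs and 111, 113 and 110 in mOPCs. The end of segment 5 was found at 34280000 (87.5 to 64.6%), within Zfyve28 and before the end by bins, and beyond it the share remained above that of the genome. Rnf4 and Sh3bp2, lower in mOPCs, lie between these estimates, while Add1, the first gene past the end, had a log2 fold change of 1.10. Segment 2 had few tags at its ends, 60 before and 99 after, and its start moved from 15680000 to 16080000 without mESC library 1 or mOPC library 2.

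**Figure D4:**
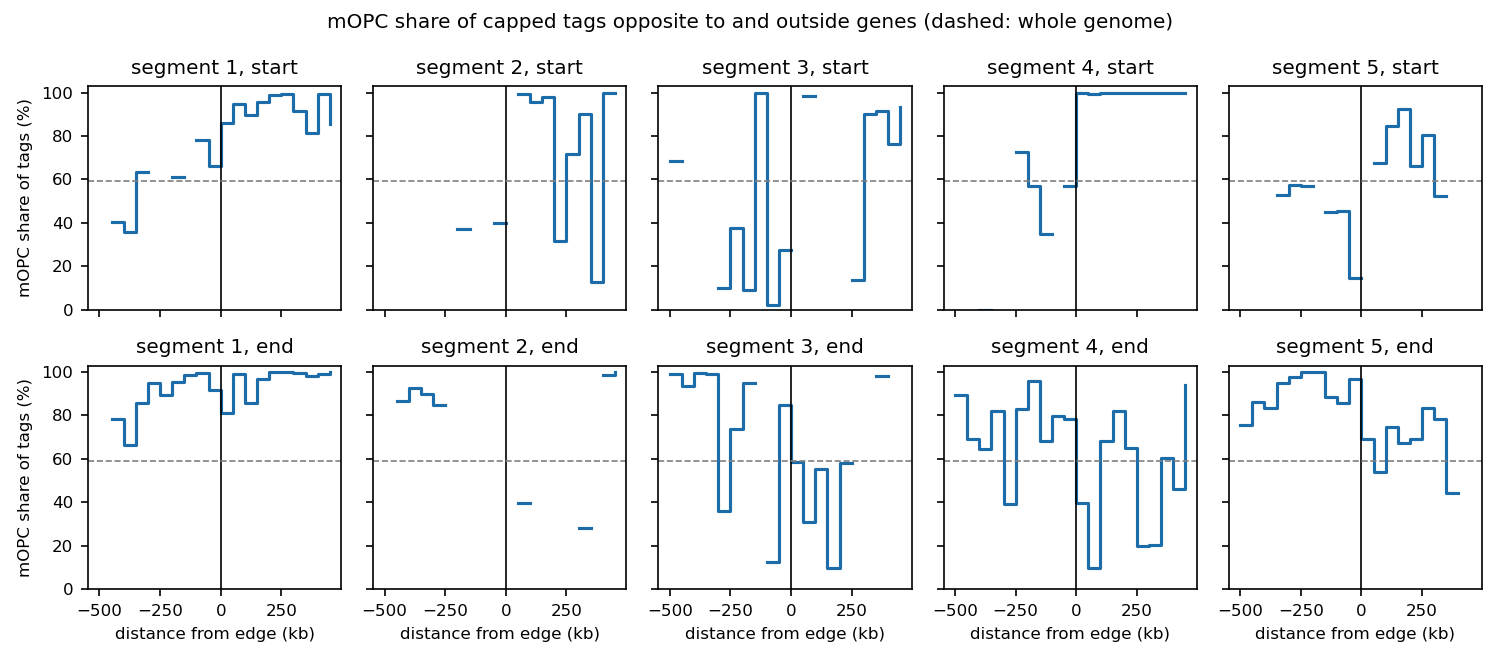
Share of mOPC tags (%) among tags opposite to and outside genes in steps of 50 kb, by distance from the edge found for the start (upper row) and end (lower row) of each raised segment, with the share over the genome as a dashed line. Steps with fewer than 20 tags are left out. After the start of segment 4 the share stays near its mean of 99.9%, at the other edges it varies from step to step, and it is high on both sides of the end of segment 1.

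Between the segments the median of the bin values was −0.41 from 5.0 to 8.6 Mb, 0.10 from 21.5 to 22.7 Mb, 0.02 from 24.5 to 29.5 Mb and 0.62 from 34.6 to 35 Mb. From 21.5 to 22.7 Mb, the gap between segments 3 and 4, the libraries held 1005, 1032 and 1036 tags per 1000000 inside genes in mESCs and 657, 668 and 638 in mOPCs, and were thus lower in mOPCs. From 9.6 to 15.8 Mb only 14 of 62 bins had a value, with a median of 2.53, and from 16.4 to 19.2 Mb 4 of 28, with a median of 1.61. Of the bins outside segments, 24 had a value of at least 1, too few in a row for the rule.

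From 9.6 to 15.8 Mb most bins with high values lie in single long genes. Semaphorins of class 3 are secreted guidance cues for axons and migrating cells, and the genes of 3 of them lie here. Sema3d had 1.25, 1.33 and 0.763 CPM in mESCs and 293, 290 and 275 in mOPCs, a log2 fold change of 7.84, and the 3 bins from 12.3 to 12.6 Mb that it spans had values of 6.77, 5.30 and 5.42. Sema3a had 0.133, 0.362 and 0.218 CPM in mESCs and 4.36, 5.30 and 4.45 in mOPCs. Sema3e went the other way, with 20.9, 21.6 and 22.6 CPM in mESCs and 6.01, 6.98 and 5.73 in mOPCs. Sema3c, which lies after segment 2, had 1.96, 1.39 and 2.40 CPM in mESCs and 2.62, 2.83 and 2.24 in mOPCs, and its groups overlapped. Pclo, a scaffold of the presynaptic active zone, had 5.59, 5.85 and 5.51 CPM in mESCs and 53.6, 54.8 and 55.4 in mOPCs, and spans 4 bins with values of 2.97, 1.96, 2.79 and 4.97.

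Lists of genes with known roles were set beside the map, and their counts stand against 41.9% of protein-coding genes called higher and 49.1% called lower genome-wide, and 78.0% called higher within the segments. Of 41 listed genes, 40 have their midpoint between 5 and 35 Mb, Cdk6 being the exception. The 4 ABC transporters and the 6 mitochondrial and peroxisomal genes listed, all within segments, were all called higher, with median log2 fold changes of 2.6 and 2.9. The lists were chosen with earlier results of these data known and are not complete. Tomm7, a mitochondrial protein of segment 4 that was called lower, is not listed. The listed mitochondrial and peroxisomal genes include Hadhb, a subunit of the trifunctional enzyme of fatty acid oxidation, with 59.3, 58.3 and 54.4 CPM in mESCs and 378, 402 and 407 in mOPCs. Hadha, the other subunit, which starts next to Hadhb on the other strand, had 147, 131 and 144 CPM in mESCs and 260, 257 and 259 in mOPCs. A pair with adjoining starts therefore differed by 2.65 and 0.75 on the log2 scale. Mpv17, a protein of the inner mitochondrial membrane, had a log2 fold change of 3.39, but 98.6% of its tags also lie in Gm29609 on the same strand. Letm1, another inner membrane protein, had a log2 fold change of 0.30.

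Of 6 listed cyclin-dependent kinases and cell cycle genes, 5 were called higher and Orc5 lower. Dbf4, a cell cycle gene outside the segments, is not on this list. Its RefSeq promoter had 9998 tags in the mESC libraries together and 1174 in the mOPC libraries. Cdk14, at the very start of the 30 Mb and outside segments, had 1.94, 1.93 and 2.67 CPM in mESCs and 89.4, 101.6 and 102.5 in mOPCs. Cenpa, the histone of centromeres, and Tacc3, a protein of the mitotic spindle, had log2 fold changes of 0.67 and 0.44. Of 5 chromatin regulators 3 were called higher, with Smarcd3, a subunit of BAF complexes that lies just past segment 4, at 1.67. Kmt2c and Paxip1, which act in a shared methyltransferase complex and lie between segments 4 and 5, had log2 fold changes of 0.14 and −0.60, and Kmt2c did not pass the test.

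Of 5 ion channel genes tested 3 were called higher, Cacna2d1, Kcnh2 and Otof, with log2 fold changes of 1.39, 1.77 and 1.76, and Dpp6 was called lower. Dpp6, a partner of potassium channels that spans 26817203 to 27727505, had 8.80, 8.38 and 7.85 CPM in mESCs and 0.413, 0.593 and 0.393 in mOPCs. Kcnk3 had a log2 fold change of −0.44 and did not pass, and Asic3 was too low for the test. Of 7 developmental genes, Fosl2 and Fgfr3 were called higher, and Hgf, Shh and Mnx1, with at most 0.273 CPM in any library, were not tested. En2 had 2.57, 1.63 and 2.34 CPM in mESCs and 2.62, 2.13 and 1.97 in mOPCs. Reln, a secreted protein of neuronal migration, had a log2 fold change of 0.32 that did not pass, and with positions moved 1 base it came to −1.39 and passed. The RefSeq promoter of Reln had 316 tags in the mESC libraries together and 0 in the mOPC libraries, with 57.6% of the mESC tags at 1 base just before the annotated start, which the gene's count leaves out. Starts at this promoter were thus lower in mOPCs. The 2 genes linked to oligodendrocytes and myelin were Lhfpl3 and Fam126a.

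Positions outside genes with the most mOPC tags lay at most 190 bases from an annotated start in each segment. In segment 1 the position 9100572 on the minus strand, 96 bases from the start of Tmem243 on the plus strand, had 0.822, 0.965 and 1.15 tags per 1000000 of the library in mESCs and 37.0, 38.4 and 35.1 in mOPCs. The second, at 9161838 on the plus strand, lay 62 bases from the start of Dmtf1 on the minus strand and had 0.424, 0.302 and 0.327 in mESCs and 19.7, 18.4 and 16.7 in mOPCs. At these places starts that point away from the gene were many times higher in mOPCs, while the log2 fold changes of Tmem243 and Dmtf1 themselves were 2.06 and 0.27. In segment 5 the position 30232391 on the minus strand, 190 bases from the start of Selenoi on the plus strand, had 3.10, 3.62 and 3.16 in mESCs and 68.1, 70.8 and 73.7 in mOPCs.

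In segment 4 the top positions, 23434440 and 24423533, lay 1 base before the start of Kmt2e and 3 bases before that of Cdk5. The first had 5.04, 6.27 and 7.47 tags per 1000000 in mESCs and 75.1, 104 and 101 in mOPCs, and the second 4.83, 3.74 and 4.31 in mESCs and 76.5, 70.2 and 66.2 in mOPCs. In segment 5 the position 31180145, 1 base before the start of Gtf3c2, had 6.26, 5.61 and 5.62 in mESCs and 83.7, 73.5 and 102.5 in mOPCs. In segment 2 both positions lay up to 117 bases before Cacna2d1, and in segment 3 they lay 35 bases before Ptpn12 and 13 bases before Gsap. These positions lie in promoters of genes that were called higher themselves, and they count as outside genes only by the annotated start. Over the genome, annotated 5′ ends had 82.7% of mESC and 83.2% of mOPC tags outside genes at most 500 bp away.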

How the data were processed

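The authors aligned trimmed CAGE tags to mm10 with bowtie, keeping unique alignments with up to 2 mismatches, according to the methods. The submitters' processing notes name CASAVA 1.8 and BWA 0.5.9 instead. The deposited values are counts of tags per base and strand, without normalization. Here tags on chromosomes 1 to 19, X and Y were classed by GENCODE vM21 genes and summed in 100 kb bins with Python 3.11.15, numpy 2.4.6 and pandas 2.3.3, and figures were drawn with matplotlib 3.10.9. A class was measured in a bin with at least 20 tags over the libraries, and a bin needed 2 measured classes. Runs at most 2 bins apart were joined, and ends were trimmed to bins of at least 1. Edges were the 10 kb boundaries with the best binomial likelihood within 500 kb.

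Genes and bins were tested over the whole genome on raw counts with the quasi-likelihood test of edgeR 4.0.16 in R 4.3.3 (robust, filterByExpr, Benjamini-Hochberg adjusted p under 0.05, with TMM for genes and class totals for bins), and DESeq2 1.42.0 was the alternative. Since the same contrast chose the stretch, no p of a single gene is given, and a call would in any case measure only the spread between these libraries. The members and gene lists were chosen with earlier results of these data known. Genes named singly were the listed genes, the 3 with the largest fold change of each segment with at least 10 CPM (without Slc35f6 to Gpn1), every gene of a segment called lower, the nearest genes with at least 2 CPM at each end, and per segment the 2 positions outside genes with most mOPC tags. A tag counted in every gene it lies in. On simulated counts, in which 200 features were changed by a log2 value of 2, the test called 199 of them among 16060 genes and all 200 among 8373 bins. It also called 11 unchanged genes and 8 unchanged bins. The simulated counts had few changed features and 1 fixed spread. In the data 41.9% of protein-coding genes were called higher and 49.1% lower. The simulation therefore does not show how the test behaves with so many changes.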

Additional observations from a re-analysis of the deposited data

How the results depend on the processing

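Between 4 and 7 raised segments were found over 20 alternative settings, 2 of them chosen after seeing the data (tags over 500 bp from any 5′ end, and positions moved 1 base downstream), and the raised length was 6.9 to 10.8 Mb. With each position counted at most 3 times a library the length was 6.9 Mb, and without each library in turn it was 9.5 to 10.8 Mb. Segment 5 kept 2.3 to 5.1 Mb in all but was split in 9 settings, with 1.3 Mb as its longest piece where positions were capped, segment 4 1.3 to 1.8 Mb, segment 3 0.7 to 2.3 Mb and segment 1 0.8 to 1.0 Mb, while segment 2 was at 0 in 10 settings. The genome-wide median bin lay at 0.38, 0.65 and 0.15 on the log2 scale inside, opposite to and outside genes. Relative to it, 8.3 Mb were raised, and 6.45% of bins over the genome. The calls of protein-coding genes ranged from 115 to 119 higher and from 47 to 54 lower over 11 alternatives. With the replicate number as a block they were 116 higher and 47 lower, as without it, and the block left the counts of bins at 118, 90 and 76. Libraries with the same number did not deviate together (correlations of 0.03, 0.06 and 0.00 over 14235 genes), so the numbers do not pair them. Of 814 values of named genes under alternatives 810 kept their side of the threshold, and Reln, Kmt2c (library sizes only) and Kcnk3 (without mESC or mOPC library 2) passed it in the other 4. Libraries of 16657021 tags and more leave 125 bins of the stretch with too few tags to describe.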

Other observations

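Of 10 long non-coding RNA genes of segment 4 with at least 2 CPM in either cell type, 9 were called higher in mOPCs. Genome-wide, without this limit on CPM, 56.1% of tested long non-coding RNA genes were called higher. In segment 5, 9 of 14 such genes were called higher and 5 lower. The segments were chosen by higher tags in mOPCs, and the limit on CPM can be met in mOPCs alone. These counts therefore repeat that choice, and nothing is read from them. Among the 9 of segment 4, 2310074N15Rik had overlapping groups, with 2.59 to 3.71 CPM in mESCs and 3.49 to 4.87 in mOPCs. Gm42951 of segment 4 was called lower, with 2.86, 3.5 and 3.87 CPM in mESCs and 0, 0.0349 and 0.123 in mOPCs. The genes are named here after their values were seen. A930003O13Rik, which begins close to Lhfpl3 on the other strand, had no tag in mESCs and 81.1, 68.0 and 66.8 CPM in mOPCs. Gm42948, within Lhfpl3 on the other strand, had no tag in mESCs and 78.5, 93.0 and 87.7 CPM in mOPCs. 5031425E22Rik, whose start lies close to that of Kmt2e on the other strand, had 33.1, 35.7 and 35.5 CPM in mESCs and 911, 891 and 732 in mOPCs.

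Beside Fgl2 in segment 3, 2 protein-coding genes outside the segments had no tag in the 3 mOPC libraries and over 10 CPM in each mESC library, and these too are named after their values were seen. Mfsd10, at 34633642 to 34637212, next to Add1, had 50.5, 44.2 and 44.8 CPM in mESCs and was at least 1446-fold lower in mOPCs, counted against 3 tags over the pooled mOPC libraries. Wdr86, at 24711738 to 24730727, had 12.5, 10.4 and 12.9 CPM in mESCs and was at least 369-fold lower.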
